A study of Mus musculus with 60 samples.

Results

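The class I antigen processing genes described here are B2m, H2-K1, H2-D1, Tap1, Tap2, Tapbp, Psmb8, Psmb9, Psmb10 and Psme1. They were chosen by name: 27 of the 45101 probe sets on the array carried 1 of these symbols and no other, and each gene was read from the brightest of its own by mean over the 60 arrays. Another 3 probe sets that carried such a symbol together with a further one were not used. All 10 genes passed the filter on dim probe sets, which kept 12650 of the 18194 genes with a probe set of their own. The probe sets read were 1449289_a_at for B2m, 1425336_x_at for H2-K1, 1425545_x_at for H2-D1, 1416016_at for Tap1, 1453913_a_at for Tap2, 1421812_at for Tapbp, 1422962_a_at for Psmb8, 1450696_at for Psmb9, 1448632_at for Psmb10 and 1417056_at for Psme1.

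RNA came from Balb/c 3T3, 1 established line of mouse embryo fibroblasts used to score transformation by chemicals in culture, grown in dishes and treated before it was confluent. Control cultures received the solvent DMSO alone, at 0.75%, and the others 1 of 4 carcinogens, which the labels spell 2-Acetylaminoflourene (AAF), benzo(a)pyrene (BaP), 2, 4-diaminotoluene (DAT) and 3-methycholanthrene (MCA). In set 1 the doses came from the literature and were kept for both times, 24 h and 120 h: BaP at 0.5 µM, MCA at 2 µM, AAF at 25 µM and DAT at 50 µM. In set 2 they were IC20 doses, found for each chemical and time. At 24 h these were BaP at 1.5 µM, AAF at 10 µM, MCA at 20 µM and DAT at 700 µM, and at 120 h BaP and MCA at 0.1 µM, DAT at 0.2 µM and AAF at 10 µM. Each set had its own DMSO controls at both times, so there were 20 groups of 3 arrays. The labels call these triplicates and do not say whether they were separate cultures, so p-values measure only the spread between arrays, which may be technical. All arrays of a group measure RNA of a whole culture, in which fewer cells of a kind and less RNA per cell cannot be told apart.

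Class I molecules show short peptides from the cell's own proteins to cytotoxic T cells, and nearly every cell type carries them. The proteasome cuts the proteins, a transporter in the membrane of the endoplasmic reticulum carries the peptides in, and a loading complex fits them onto a heavy chain held by beta-2 microglobulin. Interferons are known to raise most genes of the route, through interferon regulatory factors, STAT factors and the transactivator Nlrc5.

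In the RefSeq table of the mouse assembly, 7 of the 10 genes lie on chromosome 17 in the order Tapbp, H2-K1, Psmb9, Tap1, Psmb8, Tap2 and H2-D1, within the major histocompatibility complex, while B2m is on chromosome 2, Psmb10 on chromosome 8 and Psme1 on chromosome 14. Promoter windows, taken from RefSeq on GRCm38.p6, were found for 9 of the 10 genes and not for Tap2. These 4 stretches are shown because they hold the control regions of the genes that follow: the near-identical stretches before the heavy chain genes, the stretch before B2m, and the sequence between the starts of Tap1 and Psmb9, which are transcribed away from each other. Capitals mark matches, on either strand, to AANNGAAA (an interferon regulatory factor core), TTCNNNGAA (a STAT site), GGGNNTTCC (an NF-kB site) and GCGTG (the aryl hydrocarbon receptor core). Each is written 5′ to 3′.
H2-K1, chr17:34000390-34000518, minus strand: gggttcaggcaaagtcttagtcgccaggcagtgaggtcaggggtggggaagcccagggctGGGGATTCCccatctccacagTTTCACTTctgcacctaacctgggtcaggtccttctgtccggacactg
H2-D1, chr17:35262863-35262991, plus strand: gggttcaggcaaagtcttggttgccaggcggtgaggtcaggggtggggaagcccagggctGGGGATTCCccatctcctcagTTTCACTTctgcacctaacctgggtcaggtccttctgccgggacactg
B2m, chr2:122147507-122147686, plus strand: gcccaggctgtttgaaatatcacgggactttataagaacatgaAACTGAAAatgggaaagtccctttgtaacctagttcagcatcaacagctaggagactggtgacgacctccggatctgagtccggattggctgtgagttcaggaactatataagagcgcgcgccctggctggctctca
Tap1 and Psmb9, chr17:34187331-34187555, plus strand (the strand of Tap1): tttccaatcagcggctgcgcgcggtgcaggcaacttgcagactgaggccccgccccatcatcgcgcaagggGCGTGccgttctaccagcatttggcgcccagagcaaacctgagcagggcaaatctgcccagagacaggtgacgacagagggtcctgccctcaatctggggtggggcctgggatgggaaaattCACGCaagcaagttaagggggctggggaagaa

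The H2-K1 and H2-D1 stretches had the same base at 123 of 129 positions (95.3%), and in both the NF-kB match stood just before the interferon regulatory factor match. Over windows of 300 bases (250 before and 50 after the start), AANNGAAA was present in 4 of the 9 genes (B2m, H2-D1, H2-K1 and Psme1) and in 23.9% of all 32851 windows. GGGNNTTCC was in H2-D1 and H2-K1, against 5.82% of all windows, and TTCNNNGAA in Psmb8, against 8.3%. The receptor core GCGTG was in 6 of the 9 (H2-D1, H2-K1, Psmb10, Psmb8, Psmb9 and Tap1), against 32.4% of all windows. BaP and MCA are known ligands of that receptor. The windows of Tap1 and Psmb9 overlap, and the same GCGTG matches were counted for both genes. With H2-K1 and H2-D1 near-identical in the stretch shown, the 9 genes are not separate cases. Enrichment of a motif was not tested. A match describes these letters and is not a measured binding site.

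The 2 sets had been scaled apart before deposit, with array medians of 41.2 to 47.1 intensity units in set 1 and 56.3 to 98.9 in set 2, so each was normalized and fitted on its own and no level was set against the other set. Fibroblast markers lay above the array median on all 60 arrays for 7 of 7 genes. The leukocyte, endothelial, epithelial and class II markers Ptprc, Itgam, Pecam1, Cdh5, Krt18, H2-Ab1, H2-Eb1 and Ciita did so on 0 of 60, while Lyz2 did on 60, Csf1r and Cd74 on 59, Epcam on 53, H2-Aa on 30, Adgre1 on 29, Cd68 on 23 and Krt8 on 13. The heavy chain and B2m probe sets were within the brightest 0.976% on every array. Whether they were near saturation was not tested; their highest values were 9544 in set 1 (B2m) and 28660 in set 2 (H2-K1), where the brightest probe set of any gene reached 12235 and 46363. Probe sets of H2-K1 and H2-D1 may also bind transcripts of other class I genes. Intensities below are as deposited, for replicates 1, 2 and 3 in that order. Changes are differences of log2(intensity + 16) after normalization, ± SE, from limma with 3 arrays in each group. "Rose" and "fell" are used for a Benjamini-Hochberg adjusted p below 0.05 over 12650 genes. Treatments of 1 set and time share their control arrays.

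In the solvent controls of set 1, the parts of the class I molecule rose between 24 h and 120 h while the inducible proteasome subunits fell. By the limma test, 3 of the 10 genes rose and 4 fell, where 57.8% of all genes tested were called, so the count itself is near the background. The median change was -0.08 over the 10 genes and 0.00 over all genes.

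H2-D1, a class I heavy chain, measured 4757, 4429 and 4222 at 24 h and 6749, 6670 and 6813 at 120 h. Its arrays did not overlap, and it rose by 0.62 ± 0.06 (adjusted p = 5.5e-10). H2-K1, the other heavy chain, went from 4510, 4120 and 4176 to 5926, 5580 and 5561, a rise of 0.43 ± 0.05 (adjusted p = 1.78e-08). B2m, the light chain, went from 7079, 7367 and 6562 to 8230, 8528 and 8670, a rise of 0.29 ± 0.08 (adjusted p = 0.00316). All 120 h arrays of the heavy and light chains lay above all 24 h arrays.

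Psmb10, the inducible catalytic subunit known as MECL-1, measured 1277, 1074 and 1105 at 24 h and 521.5, 622.5 and 581.1 at 120 h. The groups were far apart, and it fell by 0.95 ± 0.08 (adjusted p = 3.25e-11), to 0.518 of the 24 h level. Psmb8 (LMP7), another inducible catalytic subunit, measured 340, 254 and 305.3 at 24 h and 199.1, 264.7 and 228.8 at 120 h, and fell by 0.37 ± 0.07 (adjusted p = 9.55e-05), with no overlap after normalization and overlap in the deposited values. Psmb9 (LMP2), the remaining inducible catalytic subunit, fell by 0.17 ± 0.07 (adjusted p = 0.0403), and Psme1, a subunit of the 11S activator that caps the proteasome, by 0.22 ± 0.07 (adjusted p = 0.011). After normalization the arrays of both overlapped (in the deposited values those of Psme1 did not), and the call was lost without DMSO 24 h replicate 1, DMSO 120 h replicate 1 or DMSO 120 h replicate 3, with adjusted p up to 0.296 for Psmb9 and 0.0913 for Psme1.

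The peptide transporter and its bridge to the heavy chain did not pass the test in set 1. Tap1, the first subunit of the transporter, measured 341.6, 277 and 278.4 at 24 h and 299.2, 325.4 and 311.4 at 120 h (0.06 ± 0.07, 95% interval -0.08 to 0.21). Tap2, its partner, differed by -0.08 (-0.32 to 0.16), and Tapbp, the tapasin that joins transporter and heavy chain, by -0.09 (-0.23 to 0.06). The arrays of these 3 genes overlapped.

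**Figure D1:**
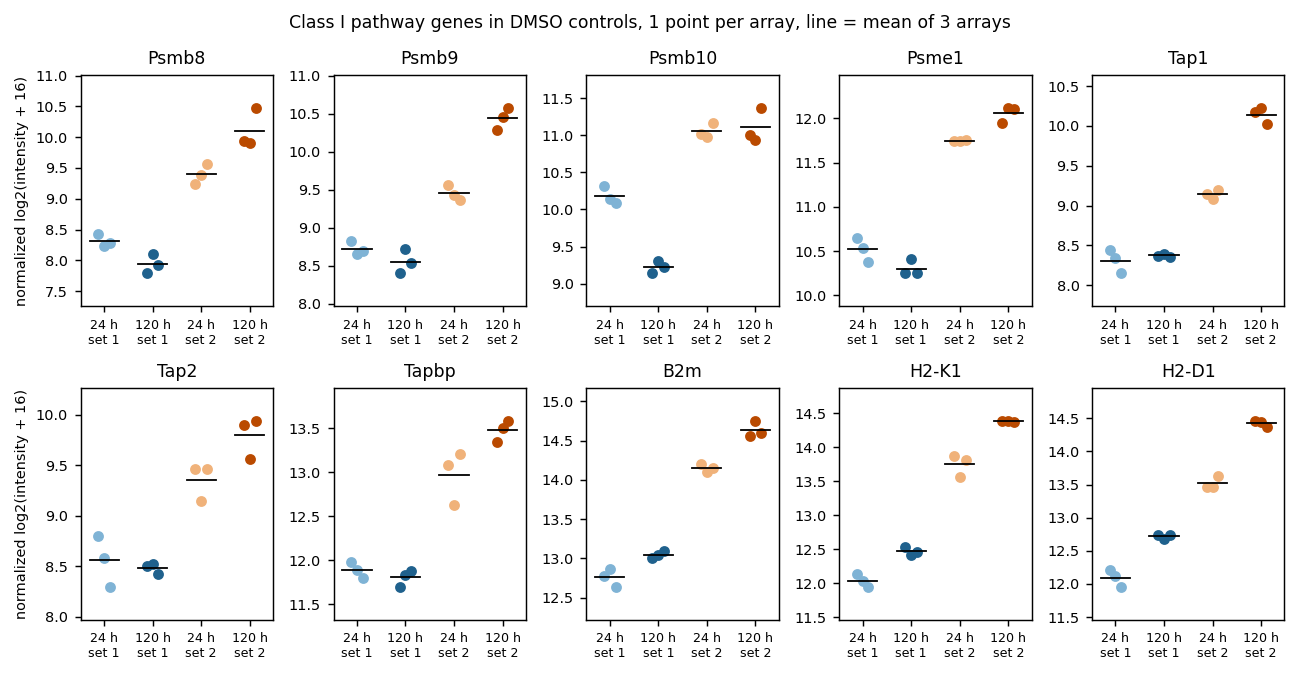
Normalized log2(intensity + 16) of the 10 genes on the DMSO control arrays, 1 panel a gene, with 24 h and 120 h of each set on the x axis. Points are arrays and bars are means of 3. H2-D1, H2-K1 and B2m rose in both sets. When arrays were centred on their medians, none of them passed in set 2 (H2-D1 0.29, H2-K1 0.00, B2m -0.08). Psmb10 fell by 0.95 in set 1 and differed by 0.06 in set 2. The vertical axis has its own range in each panel, and sets were normalized apart.

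In the controls of set 2, 8 of the 10 genes rose between 24 h and 120 h and none fell, with 40.2% of all genes called. The median change was 0.57 over the 10 genes and -0.05 over all genes, and for 9 of the 10 every 120 h array lay above every 24 h array after normalization. Psmb10 was the exception. The share of all genes whose groups separate in this way was not computed, so this count has no background to read it against.

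Tap1 measured 497, 490.8 and 523.7 at 24 h and 1154, 1186 and 1039 at 120 h, a 2-fold rise (log2 change 1.0 ± 0.13, adjusted p = 6.4e-07). Psmb9, whose start faces away from that of Tap1 in the stretch printed above, measured 693.2, 638.9 and 598.2 and then 1237, 1379 and 1514, a rise of 0.99 ± 0.15 (adjusted p = 7.66e-06). The sizes of these rises were close, and neither gene's groups overlapped. H2-D1 rose by 0.91 ± 0.06 (adjusted p = 2.5e-12), from 12890, 11390 and 13710 to 23310, 21880 and 18560. H2-K1 rose by 0.64 ± 0.09 (adjusted p = 2.92e-06) and B2m by 0.49 ± 0.06 (adjusted p = 5.86e-07). B2m had 21730, 16710 and 19180 at 24 h and 25340, 27090 and 22020 at 120 h. The heavy and light chains thus rose in the controls of both sets. With arrays centred on their medians, none of them passed the test in set 2. B2m was then at -0.08, H2-K1 at 0.00 and H2-D1 at 0.29 (adjusted p = 0.188).

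Psmb8 measured 539.3, 616.5 and 703 at 24 h and 987.1, 945.6 and 1404 at 120 h, and rose by 0.71 ± 0.20 (adjusted p = 0.005). Its change had the opposite sign in set 1, and the difference between the sets was not tested. Psme1 rose by 0.31 ± 0.09 (adjusted p = 0.00544) and Tapbp by 0.50 ± 0.17 (adjusted p = 0.0206), both with overlap in the deposited values. The Tapbp call was lost without DMSO 24 h replicate 2, DMSO 120 h replicate 2 or DMSO 120 h replicate 3, with adjusted p up to 0.154. Tap2 went from 640.8, 518.1 and 644.4 to 962.2, 753.6 and 987.2 (0.44 ± 0.19, adjusted p = 0.0664). Its groups did not overlap, and with the replicate number as a block its adjusted p was 0.000119. Psmb10 measured 2082, 2015 and 2364 and then 1957, 1919 and 2581 (0.06 ± 0.13, interval -0.20 to 0.31), with overlapping groups.

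How the set 2 arrays were scaled moved these values. The median change of all genes was -0.05 after quantile normalization, 0.11 with no normalization and -0.35 when each array was centred on its median, and the share of called genes that rose was 44.3%, 55.8% and 16%. Centred, only Tap1 (0.68, adjusted p = 0.00335) and Psmb9 (0.62, adjusted p = 0.0383) of the 10 still rose. H2-D1 (0.29, adjusted p = 0.188) and Psmb8 (0.36, adjusted p = 0.31) lost the call, while B2m was at -0.08, Tapbp at -0.14 and Psme1 at -0.30. Relative to the median of all genes, the centred changes were 1.03 for Tap1, 0.97 for Psmb9, 0.71 for Psmb8, 0.64 for H2-D1, 0.46 for Tap2, 0.35 for H2-K1, 0.27 for B2m, 0.21 for Tapbp, 0.05 for Psme1 and -0.12 for Psmb10. So 9 of the 10 genes lay above that median when centred, and 10 of 10 after quantile normalization.

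**Figure D2:**
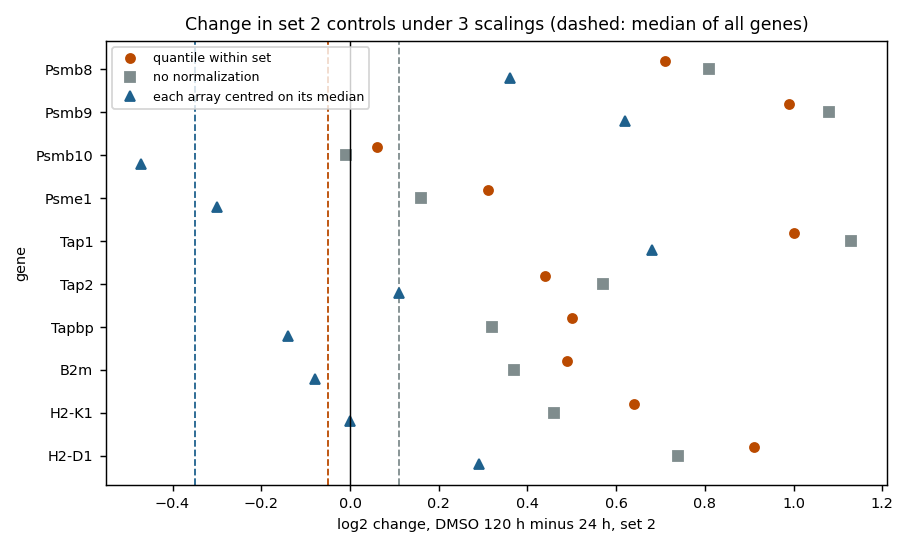
Change of each gene from 24 h to 120 h in the DMSO controls of set 2 (log2) under 3 scalings of the arrays, with a dashed line at the median change of all genes under each scaling. Tap1, Psmb9, Psmb8 and H2-D1 lay at least 0.64 above the dashed line when arrays were centred, and Psmb10 lay below it.

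Other measures moved with time in set 2. The log2 ratio of 3′ to 5′ actin probes, a sign of RNA or labelling quality, was 0.21 to 0.35 at 24 h and 0.40 to 0.64 at 120 h, and in set 1 it was 0.26 to 0.34 and 0.28 to 0.33. The same ratio for Gapdh went the other way in set 2, from -0.35 to -0.28 at 24 h to -0.56 to -0.41 at 120 h, and in set 1 it was -0.31 to -0.25 and then -0.20 to -0.16, without overlap. The summed deposited intensity of leukocyte markers (7 of the 8 in the list were on the array) was 546.8 to 625.3 at 24 h and 862 to 894 at 120 h in set 2, and 420.5 to 470.8 and 507.7 to 579.5 in set 1. After normalization, 0 of the 5 leukocyte markers tested by limma rose in set 2 and 1, Csf1r, fell by 0.56 (adjusted p = 0.00913), and in set 1 Lyz2 rose by 0.63. The sum of 4 epithelial markers went from 98.11 to 191.4 up to 267.7 to 292.5 in set 2 and from 163.8 to 221.7 up to 263.7 to 275 in set 1, with Epcam up by 1.17 and 0.62. Class II markers summed to 200.5 to 265 and then 257.6 to 345.5 in set 2, and to 181 to 230 and then 179.5 to 192.6 in set 1. The part of all these measures in the changes of the 10 genes was not tested.

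Other probe sets of H2-K1 moved in the same direction as the one read, by differing amounts. Those next in brightness for Tap1 and Psmb8 did not repeat the calls over time in the controls. Tap2, Psmb9, Psmb10 and Psme1 have 1 probe set each. All 4 H2-K1 probe sets had 120 h arrays above 24 h arrays in both sets, with changes of 0.43 to 0.83 in set 1 and 0.64 to 2.03 in set 2. Of the 9 H2-D1 probe sets, 8 did so in set 1 and 5 in set 2, and 1451934_at was above the array median on 0 of 60 arrays. The share of all probe sets whose groups separate in this way was not computed. Probe sets of H2-K1 and H2-D1 may bind the same class I transcripts, so they are not separate cases. The next brightest Tap1 probe set, which was above the array median on 11 of 60 arrays, differed by -0.03 in set 2. That of Psmb8, above the array median on 30 of 60 arrays, differed by -0.15 in set 1 (adjusted p = 0.5) and 0.19 in set 2 (adjusted p = 0.74), with overlapping groups. That of Tapbp, above it on 60 of 60, differed by 0.43 in set 2 (adjusted p = 0.485).

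At 24 h in set 1, BaP at 0.5 µM lowered Tap1 and Psmb9, the divergent pair, and no other gene of the 10 passed the limma test. The background was 9.39% of all genes called. Tap1 measured 225.1, 185.2 and 197.6 under BaP against 341.6, 277 and 278.4 in DMSO, and fell by 0.54 ± 0.07 (adjusted p = 3.81e-06), to 0.686 of control. Psmb9 measured 342.9, 316.6 and 326.8 against 446.6, 355.6 and 413.4, and fell by 0.31 ± 0.07 (adjusted p = 0.00388). Neither overlapped its controls. With the next Tap1 probe set, on which the gene is dim, the value was -0.34 (adjusted p = 0.298). The Psmb9 call was lost when arrays were left unnormalized (adjusted p = 0.112), centred (0.0934) or fitted with all 60 arrays (0.213). Psmb8 was at -0.21 ± 0.07 (adjusted p = 0.0812), and with the replicate block its adjusted p was 0.0346. The heavy and light chains, Tap2, Tapbp, Psmb10 and Psme1 differed by -0.11 to 0.09, and all of their arrays overlapped the controls after normalization.

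Of 6 classical interferon-stimulated genes tested, 6 fell in the same BaP arrays, with a median of -1.39. Among 13 regulators of the route tested, 2 rose and 2 fell, and Irf9, a partner of the STAT factors, fell by 0.44 ± 0.07 (adjusted p = 6.69e-05). With 2 µM MCA at 24 h the interferon genes also fell in 6 of 6 (median -0.82), but none of the 10 class I genes passed the limma test, against 2.21% of all genes. Unadjusted p was under 0.05 for 2 of them and for 11.4% of all genes. Tap1 was at -0.23 (interval -0.37 to -0.08, adjusted p = 0.103) and Psmb9 at -0.17 (-0.31 to -0.03, adjusted p = 0.303). Tap1 passed without DMSO 24 h replicate 3 (-0.31, adjusted p = 0.0186) or MCA replicate 3 (-0.30, adjusted p = 0.0249).

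AAF at 25 µM called none of the 10 at 24 h or at 120 h by limma, where 0.909% and 0.356% of all genes were called, and DAT at 50 µM none at 24 h, with 0.174% called. In those 3 comparisons the changes of the 10 genes lay between -0.13 and 0.11, and none had an unadjusted p under 0.05. Of all genes, 11.9%, 6.4% and 10.4% did. An example is Psmb10 under AAF at 120 h, at 577.8, 598.7 and 539.2 against 521.5, 622.5 and 581.1 in DMSO (-0.05, interval -0.21 to 0.11).

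At 120 h in set 1, BaP, DAT and MCA each raised the inducible proteasome subunits Psmb8, Psmb9 and Psmb10. B2m and H2-D1, read from their brightest probe sets, did not pass the test under any of them. The next brightest H2-D1 probe set did pass with BaP (0.17, adjusted p = 0.0422). For Psmb8 the rise holds for its brightest probe set only: the other gave 0.16 with BaP (adjusted p = 0.574), 0.27 with DAT (adjusted p = 0.329) and 0.18 with MCA (adjusted p = 0.478). The comparisons share the same DMSO arrays, in which Psmb8 and Psmb10 were lower than at 24 h. Fibroblast markers moved as well: of 7, 1 rose and 3 fell with BaP, 2 fell with DAT and 6 fell with MCA, among them Col1a1 by 0.91, 0.37 and 0.96. Thy1 rose by 1.06 and the leukocyte marker Cd68 by 0.42 (adjusted p = 0.0199) with BaP, and with MCA the epithelial marker Krt8 rose by 0.41, while Lyz2 fell by 0.37 and Cd74 by 0.38. The part of these markers in the changes below was not tested.

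BaP at 0.5 µM raised 7 of the 10 genes at 120 h and lowered none, with 26.7% of all genes called. The median change was 0.31 over the 10 and -0.01 over all genes. Psmb10 measured 1206, 1242 and 1079 against 521.5, 622.5 and 581.1 in DMSO, a rise of 1.01 ± 0.08 (adjusted p = 7.01e-11), or 2.02-fold, which is close to its level in DMSO at 24 h (1277, 1074 and 1105). Tap2 measured 588.4, 556.2 and 469.3 against 329.7, 356.3 and 324.9, a rise of 0.61 ± 0.12 (adjusted p = 0.000207). Psmb8 measured 333.7, 360.7 and 362.7 against 199.1, 264.7 and 228.8, a rise of 0.54 ± 0.07 (adjusted p = 2.2e-06). All treated arrays of Psmb10, Tap2 and Psmb8 lay above all controls.

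Tapbp went to 4536, 5014 and 5173 from 3320, 3763 and 3840 in DMSO, a rise of 0.46 ± 0.07 (adjusted p = 1.28e-05). Psme1 rose by 0.35 ± 0.07 (adjusted p = 0.000437), Psmb9 by 0.26 ± 0.07 (adjusted p = 0.00563) and H2-K1 by 0.17 ± 0.05 (adjusted p = 0.00897). These did not overlap either. The second probe set gave 0.38 for Tapbp (adjusted p = 0.233) and 0.13 for H2-K1 (adjusted p = 0.308). The Psmb9 call was lost without BaP replicate 2 or DMSO replicate 1 (adjusted p up to 0.0681) and that of H2-K1 without BaP replicate 3 or DMSO replicate 2 (up to 0.0614). Tap1, partner of Tap2 in the transporter, was at 303.9, 332 and 305.7 against 299.2, 325.4 and 311.4 (-0.06, interval -0.20 to 0.08), B2m differed by 0.00 (-0.16 to 0.17) and H2-D1 by 0.11 (-0.01 to 0.23). The actin 3′ to 5′ log2 ratio was 0.39 to 0.51 in these BaP arrays and 0.28 to 0.33 in their controls, and that of Gapdh -0.17 to -0.10 and -0.20 to -0.16, which overlap. Their part in the changes was not tested.

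DAT at 50 µM raised 5 of the 10 at 120 h and lowered none, with 23.7% of all genes called. Psmb9 measured 672, 613.2 and 683.2 against 307.1, 412.3 and 353.9, a rise of 0.88 ± 0.07 (adjusted p = 4.79e-10). Psmb10 measured 1070, 835.4 and 894.8 and rose by 0.70 ± 0.08 (adjusted p = 1.09e-07). Psmb8 measured 415.8, 275.2 and 398.6 and rose by 0.66 ± 0.07 (adjusted p = 1.4e-07). Tap1 rose as well, by 0.43 ± 0.07 (adjusted p = 3.65e-05), with 446.9, 377.5 and 426.9 against 299.2, 325.4 and 311.4, and Psme1 by 0.30 ± 0.07 (adjusted p = 0.00336). The treated arrays of the 5 raised genes lay above all controls. The dimmer Tap1 probe set gave 0.21 (adjusted p = 0.506). Tap2 differed by 0.19 (-0.05 to 0.43) and Tapbp by 0.15 (0.00 to 0.30). Their treated arrays also lay above all controls after normalization, with overlap in the deposited values. BaP and DAT at 120 h thus called different subunits of the transporter, Tap2 and Tap1, on either side of the threshold. The 2 chemicals were not tested against each other, since their doses differ, so a difference between them is not shown.

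MCA at 2 µM raised 3 of the 10 at 120 h, fewer in share than the 39.1% of all genes called. Psmb10 measured 754.9, 884.6 and 749.5 and rose by 0.43 (adjusted p = 5.6e-05), Psmb8 measured 276.5, 324.7 and 330.9 and rose by 0.42 (adjusted p = 4.57e-05), and Psmb9 measured 407.5, 478 and 433.3 and rose by 0.28 (adjusted p = 0.00186). Only for Psmb9 did the deposited values overlap the controls. The transporter subunits lay on the other side: Tap1 was at 260.9, 291.6 and 277.1 (-0.17, adjusted p = 0.0516) and Tap2 at 291.4, 311.8 and 266 (-0.22, adjusted p = 0.15). Both were below all controls, and with the replicate block both fell (adjusted p = 0.0408 and 0.0493), which makes 5 genes called. The block called 5973 of all 12650 genes, against 4941 without it, so 5 of the 10 is near that background.

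**Figure D3:**
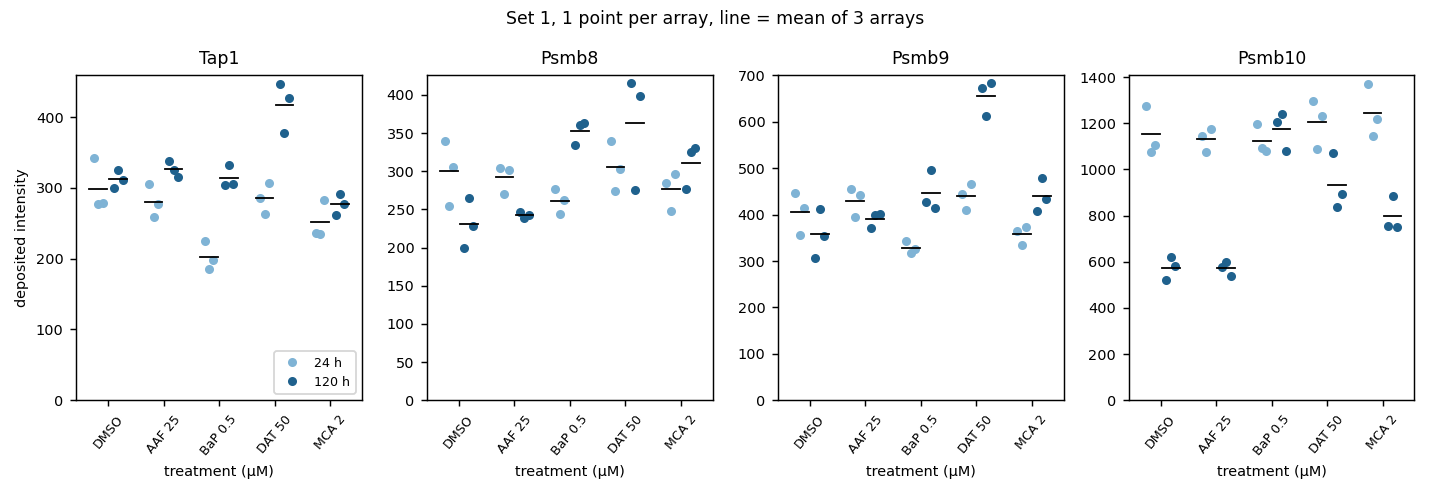
Deposited intensity of Tap1, Psmb8, Psmb9 and Psmb10 on each array of set 1, with treatment and time on the x axis; points are arrays and bars are means of 3. Under BaP, DAT and MCA at 120 h the Psmb10 arrays sat between 749.5 and 1242, above the DMSO arrays (521.5 to 622.5).

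The time dependence was tested directly for doses that were the same at both times, as the 120 h response minus the 24 h response. For BaP at 0.5 µM, 7 of the 10 genes had a larger response at 120 h (8.47% of all genes called). The difference was 1.06 for Psmb10 (adjusted p = 2.02e-07), 0.74 for Psmb8 (adjusted p = 1.72e-05), 0.57 for Psmb9 (adjusted p = 0.00025), 0.48 for Tap1 (adjusted p = 0.00153) and 0.44 for Tapbp (adjusted p = 0.00432). For Tap1 this stands for a fall at 24 h that was not seen at 120 h, and for Psmb9 for a fall followed by a rise. H2-K1 (0.23, adjusted p = 0.0388) and Tap2 (0.54, adjusted p = 0.0366) lost the call in 8 and 9 of 12 fits that each left out 1 array, with adjusted p up to 0.123. Psme1 was at 0.26 (adjusted p = 0.125), and 0.0275 with the replicate block.

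For DAT at 50 µM, 4 of the 10 had a larger response at 120 h (8.2% of all genes): Psmb9 by 0.80 (adjusted p = 5.77e-06), Psmb8 and Psmb10 by 0.67 (adjusted p = 0.000105 and 0.000163) and Tap1 by 0.53 (adjusted p = 0.000702). For MCA at 2 µM, 3 of the 10 did (28.2% of all genes): Psmb8 by 0.52 (adjusted p = 0.00044), Psmb9 by 0.45 (adjusted p = 0.000989) and Psmb10 by 0.33 (adjusted p = 0.0268, lost in 5 of 12 fits without 1 array, up to 0.0921). The catalytic subunits were therefore the genes called for all 3 chemicals. Read from their second probe sets, Psmb8 did not pass for BaP (0.26), DAT (0.41) or MCA (0.23), nor Tap1 for BaP (0.30) or DAT (0.13). For BaP, H2-K1 (0.23, adjusted p = 0.328) and Tapbp (0.17, adjusted p = 0.886) did not pass with theirs either, while H2-D1 did (0.28, adjusted p = 0.049). In a fit shared by all 60 arrays, 3 of the 10 were called for BaP and 0 for MCA. For AAF, limma called 0 of the 10 at 25 µM (0.0553% of all genes) and 0 of the 10 at 10 µM in set 2 (0% of all genes).

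**Figure D4:**
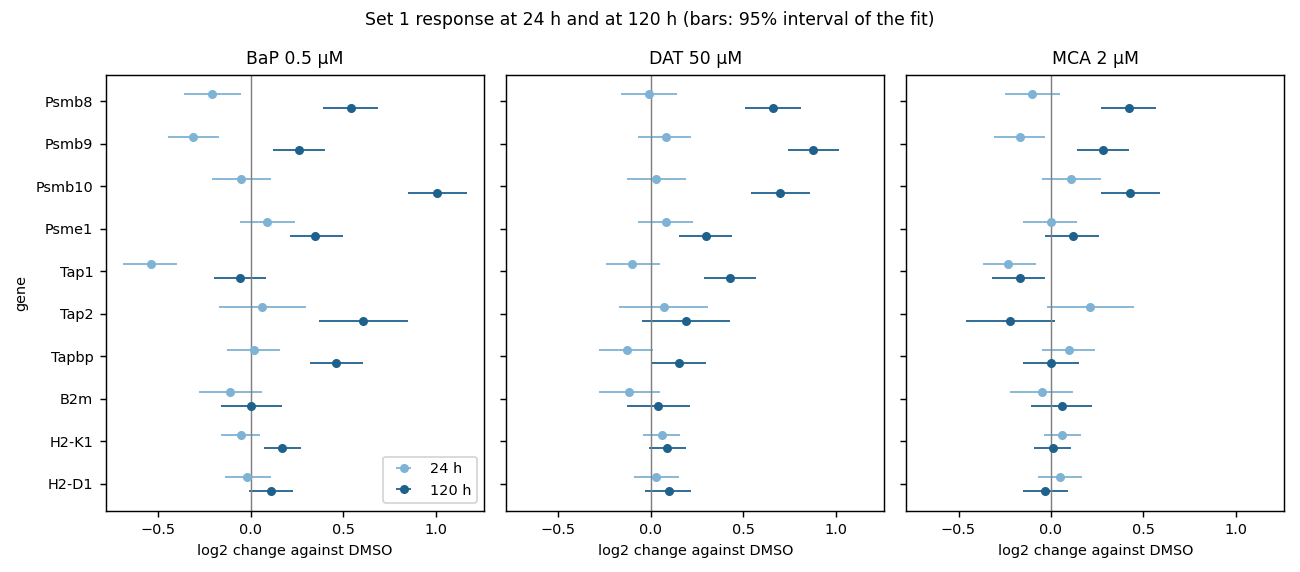
Response of each gene to 0.5 µM BaP, 50 µM DAT and 2 µM MCA against DMSO at 24 h and 120 h in set 1 (log2 difference, points with 95% intervals from the fit). Psmb8, Psmb9 and Psmb10 lay above 0 at 120 h for all 3 chemicals, with Psmb10 between 0.43 and 1.01.

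In set 2 at 24 h, DAT at 700 µM raised 5 of the 10 genes, with 7.82% of all genes called and median changes of 0.44 over the 10 and 0.00 over all genes. Psmb10 measured 3827, 3713 and 4580 against 2082, 2015 and 2364 in DMSO, a rise of 0.86 ± 0.13 (adjusted p = 6.33e-05). H2-D1 measured 17430, 14420 and 15520 against 12890, 11390 and 13710, a rise of 0.41 (adjusted p = 2.68e-05), and H2-K1 rose by 0.46 (adjusted p = 0.00148) with overlap in the deposited values. Psmb8 measured 1024, 896.9 and 1347 against 539.3, 616.5 and 703, and rose by 0.71 (adjusted p = 0.0243). Psmb9 measured 1030, 835.7 and 1081 against 693.2, 638.9 and 598.2, and rose by 0.52 (adjusted p = 0.031). Apart from H2-K1, these groups did not overlap in the deposited values.

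With its other probe set Psmb8 was at 0.08 (adjusted p = 0.972). The Psmb8 call was lost without DMSO replicate 1, DMSO replicate 2 or DAT replicate 3 (adjusted p up to 0.143), and that of Psmb9 without DMSO replicate 2, DMSO replicate 3, DAT replicate 1 or DAT replicate 3 (up to 0.13). With each array centred on its median, only Psmb10 among the 10 rose (0.88, adjusted p = 0.0225). With the replicate block 9 of the 10 rose, where 2894 of all 12650 genes were called, against 989 without it. The genes added were B2m (adjusted p = 0.0281), Tap2 (0.43, adjusted p = 0.000857), Tapbp (0.46, adjusted p = 0.000204) and Psme1 (0.27, adjusted p = 0.00709). Tap1 differed by 0.02. Of the 13 regulators 2 rose: Nlrc5, the class I transactivator, by 0.65 (adjusted p = 0.00774) and Irf1, an interferon regulatory factor, by 0.58 (adjusted p = 0.00555). The leukocyte marker sum was 655.6 to 698.6 under DAT and 546.8 to 625.3 in DMSO, and its part was not tested.

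MCA at 20 µM raised 2 of the 10 at 24 h, with 1.3% of all genes called. Psmb10 measured 3253, 2644 and 3352 and rose by 0.52 (adjusted p = 0.0331), with all arrays above the controls. H2-D1 measured 15080, 13480 and 15100 and rose by 0.26 (adjusted p = 0.0137), overlapping its controls in the deposited values. Neither call was stable to single arrays: H2-D1 lost it without DMSO replicate 1, DMSO replicate 2 or MCA replicate 3 (up to 0.109), and Psmb10 without any of these or MCA replicate 1 (up to 0.174). With the replicate block 5 rose, where 975 of all 12650 genes were called, against 164 without it. The genes added were H2-K1 (0.22, adjusted p = 0.0113), Tapbp (0.29, adjusted p = 0.0292) and Psmb8 (0.38, adjusted p = 0.0121).

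BaP at 1.5 µM raised 1 of the 10 at 24 h, H2-D1, by 0.21 ± 0.06 (adjusted p = 0.0429), with 2.36% of all genes called. It measured 14000, 13310 and 13060, overlapping its controls in the deposited values and above them after normalization. The call was lost in 5 of 6 fits without 1 array (up to 0.228), and centred the value was -0.02. With the replicate block 5 of the 10 genes were called, and 1345 of all 12650 genes, against 299 without it. Psmb8 (0.41, adjusted p = 0.0052), Psmb9 (0.34, adjusted p = 0.0325) and Psmb10 (0.39, adjusted p = 5.85e-05) rose with H2-D1. Tap1 fell by 0.34 (adjusted p = 0.0305). Psmb10 measured 2690, 2750 and 3005, above all controls. Of 6 interferon genes tested, 6 fell in these arrays.

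AAF at 10 µM called 0 of the 10 by limma at 24 h, with 0.0237% of all genes called. Unadjusted p was under 0.05 for 1 of the 10, H2-D1, and for 2.26% of all genes. At 120 h it called 0 of the 10, with 0.545% of all genes called, and the changes lay between -0.19 and 0.21. Also at 120 h, BaP at 0.1 µM called 0 of the 10 (1.42% of all genes) and DAT at 0.2 µM 0 of the 10 (0% of all genes, with an unadjusted p under 0.05 for 642 genes). MCA at 0.1 µM called 0 of the 10 (2.47% of all genes). An unadjusted p under 0.05 was found for 10.5% of all genes and for 2 of the 10, Tap2 (0.46, interval 0.06 to 0.85) and Psmb10 (0.38, interval 0.12 to 0.64). Psmb10 measured 2686, 2578 and 3050 against 1957, 1919 and 2581 in DMSO, an overlap through DMSO replicate 3, without which it rose (0.51, adjusted p = 0.0338). With the replicate block 4 rose under MCA, where 1252 of all 12650 genes were called, against 313 without it. The 4 genes were Tap2 (adjusted p = 0.001), Tapbp (0.28, adjusted p = 0.0263), Psmb8 (0.32, adjusted p = 0.0265) and Psmb10 (adjusted p = 5.46e-05).

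**Figure D5:**
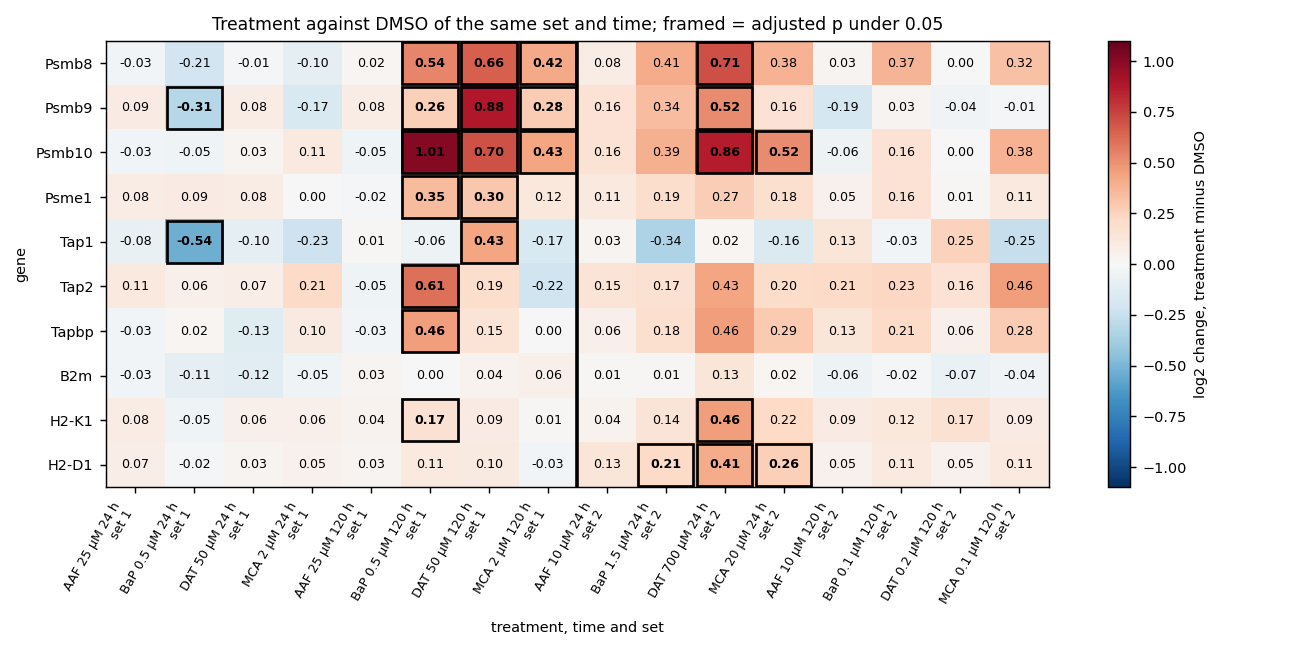
Log2 change of each gene (vertical axis) against DMSO of the same set and time, for the 16 treatments (horizontal axis), as colour; a frame marks an adjusted p below 0.05. Psmb10 was framed in 5 columns, with values from 0.43 (2 µM MCA, 120 h) to 1.01 (0.5 µM BaP, 120 h).

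BaP and MCA, both polycyclic aromatic hydrocarbons, were compared at the 1 dose and time they share, 0.1 µM at 120 h. None of the 10 genes passed the limma test (0.0791% of all genes called), and none had an unadjusted p under 0.05 (3.16% of all genes did). The largest differences of BaP minus MCA were -0.23 for Tap2 (interval -0.63 to 0.16), -0.23 for Psmb10 (-0.48 to 0.03) and 0.22 for Tap1 (-0.04 to 0.49), and that of B2m was 0.01 (-0.11 to 0.14). The intervals leave room for differences of those sizes.

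Other genes of the route did not all move with the 10. Of 14 genes listed, 11 were on the array and tested, among them constitutive proteasome subunits, the trimming enzyme Erap1 and the tapasin relative Tapbpl. In the controls, 1 rose and 7 fell in set 1 and 1 rose and 6 fell in set 2, where 57.8% and 40.2% of all genes were called. Psmb5, the constitutive counterpart of Psmb8, fell by 0.60 and 0.66, Psmb6, the counterpart of Psmb9, by 0.58 and 0.48, and Psme3, the nuclear proteasome activator, by 1.37 and 1.43 in sets 1 and 2. Pomp, a proteasome assembly factor, fell by 0.59 and 0.54, and Erap1 by 1.40 and 0.43. Psmb8 and Psmb9, in contrast to these constitutive subunits, rose in set 2.

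Against DMSO at 120 h in set 1, 3 of the 11 rose with BaP, 4 with DAT and 6 with MCA, where 26.7%, 23.7% and 39.1% of all genes were called in either direction. Erap1 rose by 0.92 (adjusted p = 3.4e-08) and Tapbpl by 0.82 (adjusted p = 3.56e-09) with BaP, and Pomp by 0.60 (adjusted p = 6.28e-07) with MCA. Of the 13 regulators, 6 rose and 2 fell with BaP at 120 h, 4 rose and 2 fell with DAT, and 1 rose and 3 fell with MCA. In the controls over time 4 rose and 2 fell in set 1, and 5 rose and 1 fell in set 2. Nlrc5 rose with BaP (0.50, adjusted p = 0.00146) and DAT (0.54, adjusted p = 0.000889) at 120 h, and over time in the set 2 controls (1.27, adjusted p = 2.28e-07), while in the set 1 controls it was at 0.21 (adjusted p = 0.127). All 6 interferon genes tested rose in the set 2 controls (median 1.17) and with DAT at 120 h (median 0.63), while with BaP at 120 h 1 rose and 1 fell.

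Across all 20 groups, each centred within its set, most pairs of the 10 genes correlated positively. Psmb10 had a negative r with B2m (-0.50), H2-D1 (-0.41), Tap1 (-0.36), H2-K1 (-0.32) and Psmb9 (-0.02). Its r was positive with Psme1 (0.55), Psmb8 and Tap2 (0.34 each) and Tapbp (0.24). Over the 45 pairs of genes, Pearson's r ran from -0.50 (B2m with Psmb10) to 0.98 (H2-D1 with B2m and with H2-K1), with a median of 0.65. These points share controls, arrays and scaling, so the correlations are descriptions. The correlation of each gene with the mean profile of the 10 was 0.92 for Psmb8, Psmb9 and Tapbp, 0.87 for H2-K1, 0.76 for Psme1 and 0.06 for Psmb10. That mean contains the gene itself, which raises r for the 10 and not for genes outside them. Outside the 10, the genes most like that mean profile were Znfx1 (r = 0.96), Gbp2 (0.94), Ifitm3 (0.93), Nlrc5 (0.93), C130026I21Rik (0.91) and Trim21 (0.90). Within the 10 groups of set 1 these correlations were lower for every gene named except Psmb10 (0.25). They were 0.44 for Psme1, 0.50 for B2m, 0.55 for Tap2, 0.58 for H2-D1, 0.82 for Znfx1 and 0.84 for Nlrc5. In set 2 they were 0.96 for Psme1, B2m and Tap2, 0.99 for H2-D1 and Znfx1, and -0.06 for Psmb10.

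The span between the highest and the lowest group mean also set the genes apart. In set 1 it was widest for Psmb10 (1.11), Tap1 (1.03) and Psmb9 (1.02) and narrowest for Psme1 (0.38) and B2m (0.46). In set 2 it was widest for Tap1 (1.59, from 1.5 µM BaP at 24 h to 0.2 µM DAT at 120 h) and narrowest for Psme1 (0.47) and B2m (0.49). Psmb10 was highest under 700 µM DAT at 24 h in set 2, and in set 1 under 2 µM MCA at 24 h.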

How the data were processed

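RNA was hybridised to single-colour oligonucleotide arrays. The authors deposited linear intensities of 45101 probe sets on 60 arrays. The submitters' processing notes name GCOS, and background correction, summarization and scaling are not given in the sources used here. Gene symbols came from the platform's annotation table, and probe sets with several were left out. A gene was tested when its brightest probe set lay above the array median on at least 3 arrays. Values were log2(intensity + 16), so changes of dim genes are understated, quantile-normalized within each set of 30 arrays. Each set was fitted on its own with limma 3.58.1 in R 4.3.3 (10 group means, 20 residual degrees of freedom, moderated two-sided tests with a mean-variance trend, Benjamini-Hochberg adjustment over 12650 genes). This made 24 comparisons; intervals are 95%. The script was tested on simulated data.

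The 10 genes and all lists were chosen with earlier results of these data known. All 10 genes were to be named, with at most 6 genes of another list (those called in at least 3 of the 18 comparisons with DMSO or over time) and the 6 genes most like the mean profile. Marker genes were named after their values were seen.

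Replicate numbers were checked for pairing by the correlation of same-numbered arrays' deviations from group means. In 14 of 19 comparisons of 2 groups all 3 pairs passed 0.1. The mean was 0.05 to 0.47 for the same number and -0.23 to -0.01 for other numbers. Deviations from a group mean cancel within the group, so the negative values follow from the positive ones and are no separate evidence. No label says what arrays of 1 number have in common, so the pairing rests on the same-number correlations alone. The number of arrays limits the precision. Alternatives were a shared fit of all 60 arrays, the groups compared alone, other scalings, pseudocounts of 1 and 64, no filter, a second probe set for the 6 genes that have one, the replicate block, and leaving out each array.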

Additional observations from a re-analysis of the deposited data

Results flagged for a closer look

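The responses of the class I genes to 1 dose differed between 24 h and 120 h in 14 tests of the difference itself (limma, 120 h response minus 24 h response). With 0.5 µM BaP these were Psmb10 (1.06), Psmb8 (0.74), Psmb9 (0.57), Tap2 (0.54), Tap1 (0.48), Tapbp (0.44) and H2-K1 (0.23). With 50 µM DAT they were Psmb9 (0.80), Psmb8 (0.67), Psmb10 (0.67) and Tap1 (0.53). With 2 µM MCA they were Psmb8 (0.52), Psmb9 (0.45) and Psmb10 (0.33). Of all genes tested, 8.47% were called for BaP, 8.2% for DAT and 28.2% for MCA. For MCA the share of class I genes called was close to that background. With BaP, H2-K1 and Tap2 lost the call in most fits that each left out 1 array. In a fit shared by all 60 arrays, 3 class I genes were called for BaP and 0 for MCA, and Psmb8 lost its call for DAT.

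Psmb8 changed over time in opposite directions in the solvent controls, by -0.37 in set 1 and 0.71 in set 2. All 3 arrays at 120 h lay below those at 24 h in set 1 and above them in set 2, after normalization. Its other probe set gave -0.15 and 0.19, with overlapping groups, and with arrays centred the set 2 change was 0.36, so that neither call is kept by the second probe set and the set 2 call is lost when centred. The difference between the sets was not tested.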

How the results depend on the processing

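Of 54 called values of the 10 genes over the 24 comparisons, 54 kept direction and call with quantile normalization over 60 arrays, a pseudocount of 1 or 64, or the replicate block, which added 23 calls. No filter kept 51, the groups compared alone 46, a shared fit 41, no normalization 40 and centring 39. Of the 10 genes, 6 have a second probe set on the array: read from it, 8 of their 29 called values were kept, 20 lost and 1 turned. Leaving out each array kept 354 of 408.

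Signs turned for B2m (-0.08), Tapbp (-0.14) and Psme1 (-0.30) in the set 2 controls over time when centred, for Tap1 there with its second probe set (-0.03), and for H2-D1 with 1.5 µM BaP when centred (-0.02). The causes were not tested.

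The number of the 10 genes called moved as follows. In the set 2 controls it was 2 centred and 5 with the second probe set, against 8. With BaP at 24 h in set 1 it was 1 in the shared fit, unnormalized, centred or with the second probe set, against 2. With 50 µM DAT at 120 h the second probe set gave 3, against 5, and with 2 µM MCA at 120 h the replicate block gave 5, against 3. With 1.5 µM BaP, against 1, the shared fit gave 3, the block 5, and the groups alone, no normalization, centring, no filter and the second probe set 0. With 700 µM DAT, against 5, no normalization gave 3, centring 1, the second probe set 3 and the block 9. With 20 µM MCA, against 2, the groups alone gave 0, no normalization 1, centring 0, the second probe set 0 and the block 5. With 0.1 µM MCA the shared fit gave 1 and the block 4, against 0. Wherever the block raised these counts, it also called more of all genes. For the time difference of responses, BaP gave 3 in the shared fit and with the second probe set, against 7, DAT 2 unnormalized and with the second probe set, against 4, and MCA 0 in the shared fit, against 3.

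Without 1 array, the counts ran from 5 to 7 and 7 to 8 in the controls of sets 1 and 2, 0 to 1 with MCA at 24 h, 1.5 µM BaP and 0.1 µM MCA, 3 to 6 with 700 µM DAT, 0 to 2 with 20 µM MCA, 6 to 7 with BaP at 120 h, and 5 to 8, 4 to 5 and 2 to 4 for the time differences of BaP, DAT and MCA.

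In 5 comparisons the arrays share only a number (the set 1 controls over time, 2 µM MCA at 24 h, 50 µM DAT, 0.1 µM BaP and 0.2 µM DAT at 120 h); there the block changed 1 count, for 0.1 µM BaP, from 0 to 1 (Psmb8, 0.37). In the time differences that use them, the block added Tapbp for DAT (0.28) and Tap2 for MCA (-0.43). There the block called 1946 and 4740 of all 12650 genes, against 1037 and 3562 without it. For 0.1 µM BaP the block called 1346, against 180 without it. Centring moved the share of called genes that rose from 51.6% to 62.6% with BaP and from 48.2% to 62.7% with 2 µM MCA at 120 h, from 49.5% to 24.4% with 1.5 µM BaP and from 48.2% to 23.6% with 20 µM MCA.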
